A study of Homo sapiens with 5 samples.

Results

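Arginine and polyamine metabolism was examined in NCI-H209 tumor cells through 10 named genes, out of 64837 entries counted per library, of which 20360 were tested. The genes were ARG1, ARG2, ASS1, ODC1, OAZ1, AMD1, SRM, SMS, SAT1 and SMOX, matched by gene name and joined by identifier to the counts of each library. They were selected on a reading of this same co-culture comparison, since they were proposed when its results were known, so their fold changes are a description and no p is given for them. NCI-H209 is an established human small-cell lung cancer (SCLC) cell line, grown here in medium with serum, and its RNA was depleted of ribosomal RNA and made into directional libraries. The control group held 3 libraries of untreated cells, and the co-cultured group held 2 libraries of cells kept for 24 h below a Transwell insert with human brain microvascular endothelial cells (HBMECs), so that the cells shared medium through the membrane. Values after ± are SDs over these libraries (n = 3 in control and n = 2 in co-cultured cells), log2FC is the log2 ratio of co-cultured over control, and SE is its standard error. No source used here says that the libraries of a group came from separate cultures, so the spread between them may be technical and any p measures only that spread, and all come from 1 cell line.

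Arginine reaches polyamines in a short series of steps. Cells take up arginine or build it from citrulline through argininosuccinate, and arginase splits it into urea and ornithine. Ornithine is decarboxylated to putrescine, to which aminopropyl groups from decarboxylated S-adenosylmethionine are added to give spermidine and then spermine, small cations that bind nucleic acids and are needed for growth. Breakdown runs through acetylation and oxidation, and antizyme lowers ornithine decarboxylase protein when polyamines are plentiful. Loss of ASS1 is known in part of SCLC and makes such cells depend on arginine from outside.

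Totals on genes ran from 15457071 to 19157348 counts per library, and a count of 3, taken as the floor, was 0.157 to 0.194 CPM (the share of a library's counts on genes, scaled by TMM factors). This floor covers counting error only, since reads copied by PCR are not separate molecules. The share of reads left unmapped was 8.13% to 8.48% in control, and in co-culture it was 16.8% and 15.9%. Control replicate 1 stood apart on the second principal component, which held 18.3% of the variance. Neuroendocrine markers were high in all libraries, with a summed level of 2145 to 2711 CPM in control and of 2921 and 3061 CPM in co-cultured cells, and 4 of the 11 tested were called higher and 2 lower. CHGA, among the 12 listed, had at most 1 count in any library, and whether its reads were left uncounted for matching several places was not tested. The 15 endothelial markers summed to 17.5 to 27.3 CPM in control and to 23.2 and 23.7 CPM in co-cultured cells. TIE1, EMCN, ROBO4, CLEC14A and MMRN2 had at most 3 counts in every library, while 2 of the 9 tested, ESAM (log2FC 2.14, 3 to 21 counts per library) and ICAM2 (log2FC 0.45), were called higher and 0 lower. Of those not called, PECAM1, CDH5 and EGFL7 had a positive log2FC and VWF, KDR, TEK and ERG a negative one. KDR had 37, 27 and 2 counts in control against 12 and 4, and TEK had 31, 24 and 0 against 6 and 3. Both were thus lowest in control replicate 3, apart from the other control libraries. The part of HBMEC transcripts and of the unmapped share in the results below was not tested.

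At an adjusted p under 0.05, 5 of the 9 tested genes were higher and 1 was lower in co-cultured cells, where 18.4% of all genes tested were called higher and 15% lower. By the cutoffs the study used, taken here as log2FC beyond 1 in size plus p under 0.05 before adjustment, 2 were higher (ARG2 and SMOX) and 0 lower, against 5.44% and 5.01% of all genes. The 2 groups did not overlap, with co-cultured libraries above, for 5 of the 9 and, with co-cultured libraries below, for 3 of the 9, against 29.4% and 30% of all genes. Because these genes were chosen with the contrast in view, nothing is read from their counts against these shares. Under upper-quartile normalization 3076 of all genes were called higher and 3929 lower, where TMM gave 3750 and 3059, and of the 9 genes 4 were then higher and 2 lower. The median log2FC of the 9 was 0.24, beside -0.03 over all genes tested.

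**Figure D1:**
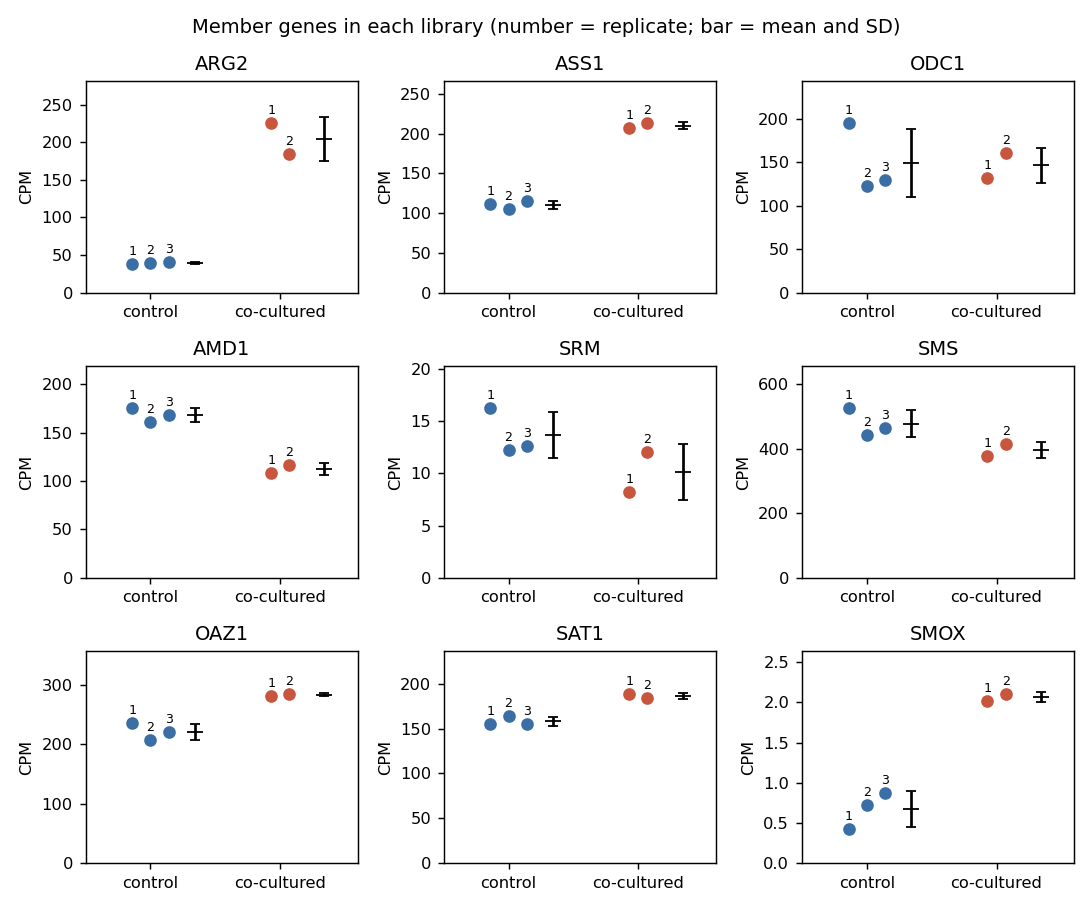
CPM of 9 genes in each library (vertical axes, each from 0), with control libraries in blue and co-cultured libraries in orange, numbers giving the replicate, and bars giving the mean and SD of each group. ARG2 and ASS1 sit far above control in both co-cultured libraries, AMD1 sits below, and for ODC1 control replicate 1 lies above every other library.

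ARG2 had the largest log2FC of the 9 tested genes, and ASS1 was higher as well. ARG2, which encodes the mitochondrial arginase, had 37.9, 39.4 and 41.1 CPM in the control libraries and 225 and 184 CPM in the co-cultured libraries. The control values lay close together and both co-cultured values were several times higher, with the first above the second. The mean went from 39.4 ± 1.6 CPM to 204 ± 28.7 CPM, a 5.18-fold difference and a log2FC of 2.37 (SE 0.098), which placed ARG2 120th from the top among the 20360 genes tested. In bulk RNA more or fewer cells with a transcript and more or less of it per cell cannot be told apart, here or for the genes that follow. ARG2 lies on chromosome 14 from 67619798 to 67651720 on the plus strand (GRCh38, GENCODE release 29), and 37.4% of its exon length is covered by exons of VTI1B on the other strand. Reads on that other strand were 6.14% to 31.1% of all reads at ARG2, and when counts were taken without regard to strand the log2FC was 2.20.

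ASS1, which encodes argininosuccinate synthase, the enzyme that joins citrulline and aspartate on the way to arginine, lies on chromosome 9 from 130444929 to 130501274. It had 111, 105 and 115 CPM in control and 207 and 213 CPM in co-cultured libraries, and the groups were far apart relative to the spread within each. The mean went from 110 ± 4.77 CPM to 210 ± 4.29 CPM, a log2FC of 0.93 (SE 0.075), just under the cutoff of 1. The genome holds 11 pseudogenes named after ASS1, which together had 12 to 30 counts per library, against 1904 to 3788 at ASS1 itself, and reads that map to several places were not counted. ARG1, which encodes the cytosolic arginase of liver, lies on chromosome 6 from 131573144 to 131584332 and had 2 counts in control replicate 3 and 0 in each of the other 4 libraries. It was at or under the floor in every library, so no fold is given, and it was the 1 gene of the 10 that could not be tested. Of the reads at its place, 98% to 100% were on the other strand. Counted without regard to strand it had 88, 93 and 102 counts in control against 61 and 38, and the call as lower that this gave belongs to those reads and not to ARG1.

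The promoters of ARG2 and ASS1, which rose, of AMD1, which fell, and of ODC1, which was not called, are shown because they can be compared for short motifs of factors known to act at genes of this pathway. They are the 250 bases before the start site in RefSeq on GRCh38.p14, written 5′ to 3′ on the strand of the gene, and windows were found for 9 of the 10 genes. Capitals mark matches on either strand to CACGTG (the E-box bound by MYC and related factors), ACGTG and GCGTG (the core of the hypoxia response element, of which the first also lies inside the E-box), TGACGTCA (the full cAMP response element) and TGATGCAA (an element bound by ATF4 with CEBP partners). The windows lie at chr14:67619670-67619919 (plus strand) for ARG2, chr9:130444711-130444960 (plus strand) for ASS1, chr6:110874534-110874783 (plus strand) for AMD1 and chr2:10448328-10448577 (minus strand) for ODC1.
ARG2: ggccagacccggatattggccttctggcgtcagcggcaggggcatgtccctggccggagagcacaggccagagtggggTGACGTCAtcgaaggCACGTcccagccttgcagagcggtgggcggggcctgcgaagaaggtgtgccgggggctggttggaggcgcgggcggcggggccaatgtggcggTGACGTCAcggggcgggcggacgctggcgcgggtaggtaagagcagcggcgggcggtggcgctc
ASS1: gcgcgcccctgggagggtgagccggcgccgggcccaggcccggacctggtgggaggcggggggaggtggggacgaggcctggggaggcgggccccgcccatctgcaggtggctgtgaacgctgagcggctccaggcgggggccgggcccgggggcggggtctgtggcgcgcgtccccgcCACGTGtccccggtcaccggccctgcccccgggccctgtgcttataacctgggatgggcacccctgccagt
AMD1: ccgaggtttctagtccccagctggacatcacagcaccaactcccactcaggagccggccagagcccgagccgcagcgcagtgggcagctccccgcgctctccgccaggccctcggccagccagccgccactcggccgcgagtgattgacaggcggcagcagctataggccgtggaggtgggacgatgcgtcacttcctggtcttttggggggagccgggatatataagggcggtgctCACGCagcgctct
ODC1: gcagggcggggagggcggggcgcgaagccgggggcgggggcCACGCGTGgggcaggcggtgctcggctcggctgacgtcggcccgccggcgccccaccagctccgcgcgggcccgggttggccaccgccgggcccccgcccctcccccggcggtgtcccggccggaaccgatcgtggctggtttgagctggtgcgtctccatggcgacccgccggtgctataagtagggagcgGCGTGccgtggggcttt

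The window of ARG2 held TGACGTCA at 2 places, from 172 to 165 and from 64 to 57 bases before the RefSeq start, and it was the only window of the 9 with this motif. The place from 64 to 57 lies after the start of ARG2 in GENCODE, and the other lies before it. The windows shown for ASS1, AMD1 and ODC1 also run past the GENCODE start of the gene, that of ODC1 for most of its length. The GCGTG of AMD1 (from 13 to 9) and the one of ODC1 from 17 to 13 lie after that start. Those windows are thus not wholly upstream of the gene models used for counting. Of 35116 windows of the same length in the table, which include several starts for some genes, 1.65% held it at least once and 19 windows (0.0541%), that of ARG2 among them, held it at 2 or more places. ACGTG was found in ARG2, ASS1, SRM and SMS (18.5% of all windows), and GCGTG in ODC1, OAZ1, AMD1 and SMS (32.2%). The full E-box was found in ASS1, from 71 to 66 bases before the start, and in SRM, from 199 to 194 bases before it (6.34% of all windows). TGATGCAA was in none of the 9 windows and in 0.772% of all. GGGCGG, the core of the site of SP1, which is not marked, was in 7 of the 9 windows, those of ARG1 and SAT1 being without it, and in 42.6% of all. A match shows the letters and no binding, and other stretches of these genes were not searched.

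Among the enzymes that make polyamines, AMD1 fell, SMS and SRM lay lower without a call, and ODC1 had overlapping groups. AMD1, which encodes the enzyme that makes decarboxylated S-adenosylmethionine, had 175, 161 and 168 CPM in control and 108 and 117 CPM in co-cultured libraries, both below every control library. Its mean was 168 ± 7.26 CPM in control and 112 ± 6.44 CPM in co-cultured cells, a log2FC of -0.58 (SE 0.081), or 1.49-fold lower. AMD1 lies on chromosome 6 from 110874770 to 110895713. A single one of the 5 pseudogenes named after it had counts, 12 to 44 per library, beside 1772 to 3297 at AMD1.

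ODC1, which encodes ornithine decarboxylase, the enzyme that makes putrescine and a known target of MYC, had 195, 123 and 130 CPM in control and 132 and 161 CPM in co-cultured libraries. Control replicate 1 was the highest of all 5 and the other control libraries were the lowest, so the groups overlapped. The log2FC was -0.02 (SE 0.18), and without control replicate 1 it was 0.22 with a call as higher, and the sign was also positive without co-cultured replicate 1 (0.12) and in counts taken without regard to strand (0.028). ODC1 lies on chromosome 2 from 10439968 to 10448504 on the minus strand. Its spread within control, a coefficient of variation of 26.5%, was larger than that of ARG2 (4.06%), ASS1 (4.34%), AMD1 (4.32%) or SAT1 (3.20%). It was also larger than that of SRM (16.2%), SMS (8.81%) and OAZ1 (6.47%), and smaller than that of SMOX (33.6%).

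SRM and SMS encode spermidine synthase and spermine synthase, which add the first and the next aminopropyl group. SRM, on chromosome 1 from 11054584 to 11060024, had 16.2, 12.2 and 12.6 CPM in control and 8.20 and 12 CPM in co-cultured libraries. Co-cultured replicate 2 was next to the lowest control library, and co-cultured replicate 1 was well below all the others. The log2FC of SRM was -0.44 (SE 0.20), and it was -0.17 without co-cultured replicate 1 and -0.73 without co-cultured replicate 2. SRM was called lower only with the filter of 1 count in any library (-0.44). SMS, on chromosome X from 21940573 to 21994835, had 525, 444 and 465 CPM in control and 379 and 415 CPM in co-cultured libraries. Both co-cultured values were below all control values, with a log2FC of -0.27 (SE 0.097) that was not called. It was called lower without control replicate 1 (-0.19), under upper-quartile normalization (-0.34) and with filters of 1 count in any library (-0.27) or 10 counts in every library (-0.28). The sum of ODC1, AMD1, SRM and SMS was 911, 740 and 775 CPM in control and 627 and 706 CPM in co-cultured libraries. Control replicate 1 was the highest of its group for ODC1, AMD1, SRM, SMS and OAZ1 and the lowest for ARG2 and SMOX.

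OAZ1 encodes antizyme, which binds ornithine decarboxylase and sends it to the proteasome. Its protein is made only when the ribosome shifts frame at an early stop codon, a step that polyamines promote, so the count of its RNA does not give the amount of antizyme. The stretch around that stop is shown, with the stop in capitals, because it marks the limit of what the RNA can tell. It was read from GENCODE release 29 transcripts, in 7 of 11 transcripts of OAZ1 and in 5 of 9 of the related OAZ2.
OAZ1: ctcggtggtgctccTGAtgcccctcaccca
OAZ2: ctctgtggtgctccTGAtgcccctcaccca

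The CPM of OAZ1 was 235, 207 and 220 in control against 281 and 285 in co-cultured libraries, with both co-cultured libraries above control. Its mean was 221 ± 14.3 CPM and 283 ± 2.56 CPM, a log2FC of 0.36 (SE 0.082). The call was lost without co-cultured replicate 1 (0.38) and without co-cultured replicate 2 (0.35), where the fold change itself hardly moved, and with the replicate number as a block (0.36). OAZ1 lies on chromosome 19 from 2269509 to 2273490, and 6.40% of its exon length overlaps a gene on the same strand, where STAR's counting assigns reads to neither.

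Both genes of polyamine breakdown were called higher, with very different levels. SAT1, the acetyltransferase that starts the breakdown of spermidine and spermine, had 155, 164 and 155 CPM in control and 189 and 184 CPM in co-cultured libraries, which did not overlap. The difference was small, from 158 ± 5.05 CPM to 186 ± 3.54 CPM, a log2FC of 0.24 (SE 0.074). Its call was lost without control replicate 2 (0.27), control replicate 3 (0.23), co-cultured replicate 1 (0.23) or co-cultured replicate 2 (0.26), with the replicate block (0.22), under upper-quartile normalization (0.16) and with the filter of 1 count in any library (0.24). SAT1 lies on chromosome X from 23783173 to 23786226.

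SMOX, which encodes spermine oxidase, an enzyme that returns spermine to spermidine and releases hydrogen peroxide, was scarce, with 8, 13 and 17 counts in control and 37 and 32 counts in co-cultured libraries. As CPM these were 0.425, 0.719 and 0.870 CPM against 2.02 and 2.11 CPM, so that every co-cultured value was more than the highest control value, at a level where few reads carry the estimate. The log2FC was 1.61 (SE 0.35). It was no longer called without co-cultured replicate 1 (1.65) or co-cultured replicate 2 (1.58), and it could not be tested where 10 counts were required in every library. Reads on the other strand made up 11.1% to 33.3% of all reads at SMOX, on chromosome 20 from 4120980 to 4187747.

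**Figure D2:**
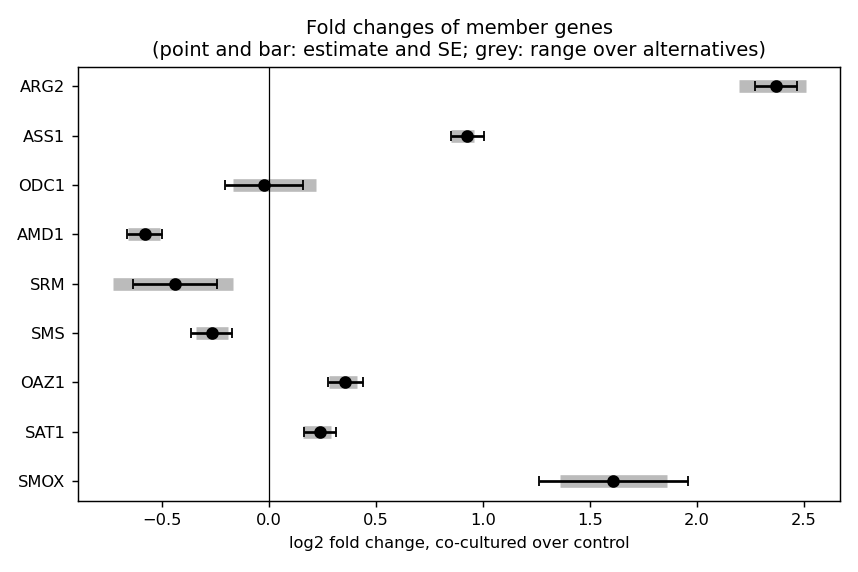
Log2 fold change (log2FC) of co-cultured over control for 9 genes (points, with standard errors as bars) and the range of the estimate over the alternatives as grey bands. The band of ODC1 runs from -0.17 to 0.22 across 0, while those of ARG2 (2.20 to 2.51), ASS1 (0.85 to 0.96) and AMD1 (-0.66 to -0.51) stay on 1 side.

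Levels can be compared between genes only per length, here as CPM per kilobase of all annotated exons, which understates a gene with long exons that are seldom used, such as AMD1 with 7027 bases of exon. In control, SMS was highest at 221 ± 19.5 CPM per kilobase. OAZ1 (64.2 ± 4.15), SAT1 (63.2 ± 2.02) and ODC1 (50.2 ± 13.3) followed, and neighbours among these 3 overlapped. ASS1 (36.2 ± 1.57), AMD1 (23.9 ± 1.03), ARG2 (16.3 ± 0.663), SRM (7.19 ± 1.16) and SMOX (0.228 ± 0.0768) came next, with no overlap between neighbours. In co-cultured cells, SMS was again highest at 184 ± 12 CPM per kilobase, and ARG2, which had been 7th of the 10, was 2nd at 84.6 ± 11.9, overlapping OAZ1 (82.3 ± 0.746). SAT1 (74.6 ± 1.42), ASS1 (68.9 ± 1.41), ODC1 (49.4 ± 6.96), AMD1 (16 ± 0.916), SRM (5.33 ± 1.42) and SMOX (0.702 ± 0.022) followed. Spermine synthase RNA was thus above spermidine synthase RNA in all 5 libraries, whose ratio of counts ran from 32.5 to 46.2. The genome holds 2 pseudogenes named after SRM, which had no counts, and reads that map to several places were not counted. Whether this lowered the count of SRM was not tested.

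**Figure D3:**
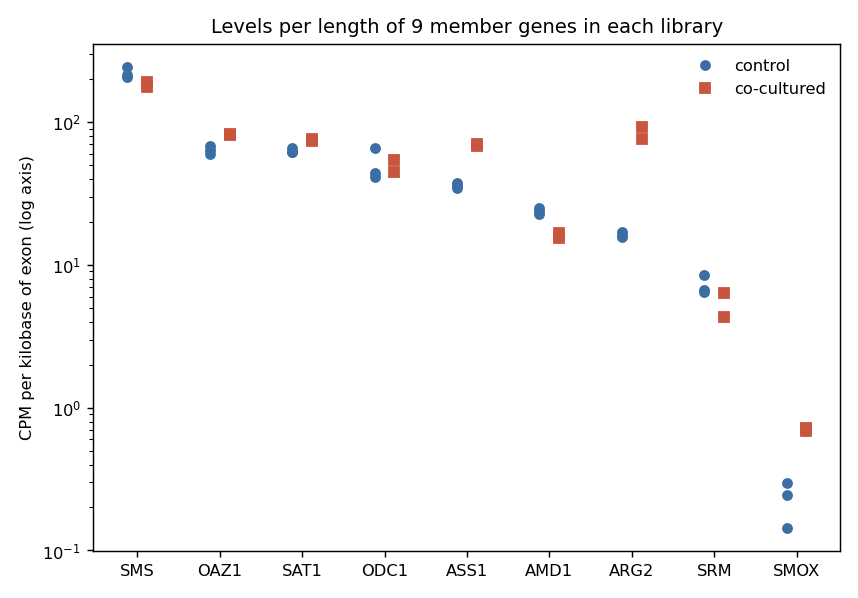
CPM per kilobase of exon (log axis) of 9 genes in each library, ordered by the control mean, with control libraries as blue circles and co-cultured libraries as orange squares. ARG2 moves from below AMD1 in control to the level of OAZ1 in co-cultured cells, and SMS is the highest gene in every library.

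Ratios of genes within a library do not depend on how libraries are scaled. The ratio of ARG2 to ASS1 counts was 0.341, 0.374 and 0.358 in control against 1.09 and 0.864 in co-cultured libraries, so the arginase RNA gained on the synthase RNA although both were higher. The ratio of OAZ1 to ODC1 was 1.21, 1.68 and 1.69 in control against 2.13 and 1.76 in co-cultured libraries. These did not overlap, but co-cultured replicate 2 was close to control replicates 2 and 3, and control replicate 1 was the lowest. SAT1 to ODC1 was 0.799, 1.33 and 1.19 against 1.43 and 1.14, which overlapped. SMOX to ODC1 was 0.00219, 0.00585 and 0.00671 in control against 0.0153 and 0.0131 in co-cultured libraries, with no overlap. Those of AMD1 to SRM (10.8, 13.2 and 13.3 against 13.2 and 9.74) and of SMS to SRM (32.5, 36.5 and 36.9 against 46.2 and 34.6) overlapped between the groups.

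**Figure D4:**
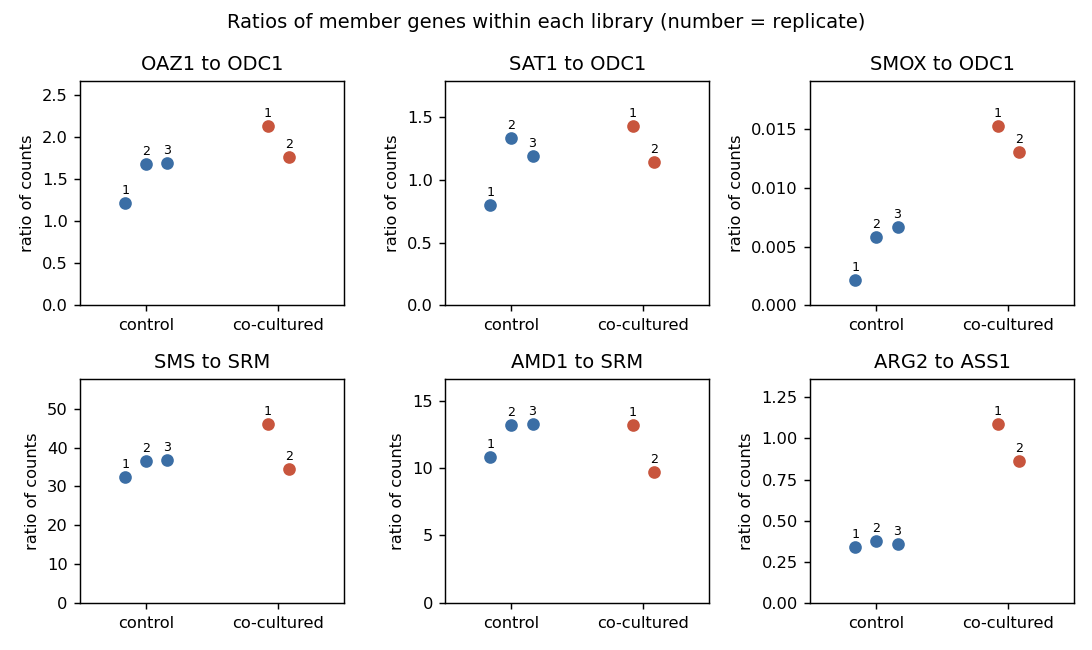
Ratios of counts of 2 genes within each library (vertical axes from 0), with control libraries in blue, co-cultured libraries in orange and numbers giving the replicate. The ratio of ARG2 to ASS1 lies between 0.341 and 0.374 in control and at 0.864 and 1.09 in co-cultured cells.

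The other genes of the pathway were taken from 10 lists by role, written from general knowledge, and held 58 genes, of which 48 were tested. These lists too were written with earlier results of these data known, and the genes named below are mostly those called. Their adjusted p-values therefore describe this contrast and are no independent check on the pathway. Calls in edgeR at the same threshold were 11 (22.9%) higher and 11 (22.9%) lower, beside the 18.4% and 15% of all genes, and their median log2FC was 0.09. PYCR3, OTC and SLC22A3, named here after their values were seen, were at 0 counts in every library. Reads with several matches in the genome index were left uncounted, so such a 0, for PYCR3 in particular, does not show that a gene was silent. Without control replicate 1, 31 of the 47 pathway genes then tested were called, beside 9897 of 19974 over all genes. Leaving out either co-cultured library lowered the number called, among these genes and over all genes, though such a fit leaves 1 library in that group. The direction of these moves was shared with all genes, but their size was not the same.

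Genes listed for arginine transport, not all of which carry arginine themselves, were called in both directions. SLC3A2, the heavy chain that carries several amino acid transporters to the membrane, had 227, 152 and 146 CPM in control and 435 and 435 CPM in co-cultured libraries, a log2FC of 1.31 (SE 0.17, adjusted p = 0.000526 in edgeR's quasi-likelihood test, Benjamini-Hochberg adjusted). SLC7A1, the main carrier of cationic amino acids such as arginine, had 412, 333 and 338 CPM against 613 and 689 CPM, a log2FC of 0.85 (SE 0.11, adjusted p = 0.000574, edgeR). Both co-cultured values exceeded all control values for SLC3A2 and for SLC7A1. SLC38A9, which senses arginine at the lysosome, fell by 0.58 on the log2 scale (adjusted p = 0.00427, edgeR), a call lost without co-cultured replicate 2. Of the 6 transport genes tested, 2 were higher, 2 lower and 2 not called.

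Of the 5 other urea cycle genes tested, ASL, which releases arginine from the product of ASS1, was the only one called, from 8.73 ± 1.01 CPM to 12 ± 0.56 CPM, a log2FC of 0.45 (adjusted p = 0.0400, edgeR). That call was lost under DESeq2 (0.465), upper-quartile normalization (0.38) and the replicate block (0.44), and without control replicate 2 (0.39), control replicate 3 (0.44), co-cultured replicate 1 (0.41) or co-cultured replicate 2 (0.50). NOS1, a nitric oxide synthase that uses arginine, fell by 0.92 on the log2 scale (adjusted p = 0.0126, edgeR), from 7.55, 10.5 and 12.1 CPM to 4.81 and 5.88 CPM. It was the 1 gene called of 5 for nitric oxide and methylarginine. On the way from arginine to creatine, GATM fell by 0.52 on the log2 scale (adjusted p = 0.0101, edgeR) and the creatine carrier SLC6A8 rose from 6.22, 7.69 and 7.58 CPM to 28.6 and 17.7 CPM, a log2FC of 1.70 (SE 0.20, adjusted p = 0.000383, edgeR). The co-cultured values of SLC6A8 lay far from each other but well above control. The calls of NOS1 and GATM were lost without co-cultured replicate 1 or co-cultured replicate 2, and that of GATM also with the replicate block.

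Ornithine is also made into proline. PYCR1, which takes the last step to proline in mitochondria, rose by 0.52 on the log2 scale (adjusted p = 0.00372, edgeR), a call lost without co-cultured replicate 2.

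Among the relatives of antizyme, AZIN1, an antizyme inhibitor that frees ornithine decarboxylase from antizyme, had 587, 471 and 471 CPM in control and 808 and 791 CPM in co-cultured libraries. Both co-cultured libraries lay above control, with a log2FC of 0.65 (SE 0.11, adjusted p = 0.00209, edgeR). OAZ2, OAZ3 and AZIN2 were not called, with log2FC of 0.15, -0.40 and 0.05 (adjusted p = 0.219, 0.517 and 0.865, edgeR). OAZ2 was called higher without control replicate 1 (0.21), and 91.6% to 95.7% of the reads at OAZ3 were on the other strand. Thus RNA of an inhibitor of ornithine decarboxylase (OAZ1) and of an inhibitor of that inhibitor (AZIN1) were both higher in co-cultured cells, while ODC1 itself had overlapping groups.

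Among the relatives of the breakdown enzymes, SAT2 and PAOX were not called and SATL1 was. SAT2 had 7.14 ± 0.246 CPM and 7.94 ± 0.257 CPM, with a log2FC of 0.15 (adjusted p = 0.460, edgeR), and PAOX, which oxidises acetylated polyamines, had 4.16 ± 0.396 CPM and 4.03 ± 0.181 CPM, with -0.05 (adjusted p = 0.877, edgeR). SATL1 rose by 0.60 on the log2 scale (adjusted p = 0.0346, edgeR), but 61.8% to 73.2% of the reads at its place were on the other strand, and the call was lost without control replicate 2 or either co-cultured library and under upper-quartile normalization. Of 5 tested polyamine transport genes, SLC18B1, a vesicular polyamine carrier, rose by 0.46 on the log2 scale (adjusted p = 0.0303, edgeR) and ATP13A3, a polyamine pump, fell by 0.27 (adjusted p = 0.0251, edgeR). The call of SLC18B1 was lost without control replicate 3 or either co-cultured library, with the replicate block and under upper-quartile normalization. That of ATP13A3 was lost without control replicate 2, control replicate 3 or either co-cultured library, with the replicate block and without regard to strand.

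Spermidine also supplies the hypusine of translation factor eIF5A. DHPS, which takes the first step of that modification, fell by 1.01 on the log2 scale (SE 0.22, adjusted p = 0.00741, edgeR), from 4.41, 5.14 and 4.04 CPM to 2.24 and 2.25 CPM, and 25% to 51.2% of the reads at DHPS were on the other strand. EIF5A and EIF5A2, which encode the modified factor, rose by 0.50 and 0.89 on the log2 scale (adjusted p = 0.0375 and 0.00114, edgeR). The call of EIF5A was lost without control replicate 2, control replicate 3 or either co-cultured library, and that of DHPS without either co-cultured library. In the supply of S-adenosylmethionine and the salvage of the methylthioadenosine that polyamine synthesis leaves behind, 4 of 8 tested genes were lower and 1 was higher. MAT2A, which makes S-adenosylmethionine, had 470, 373 and 383 CPM in control and 297 and 292 CPM in co-cultured libraries, a log2FC of -0.47 (adjusted p = 0.0101, edgeR). ADI1, a dioxygenase of the salvage route, fell by 0.54 on the log2 scale (adjusted p = 0.0316, edgeR) and ENOPH1, which acts before it, rose by 0.62 (adjusted p = 0.00145, edgeR). The calls of MAT2A and ADI1 were lost without co-cultured replicate 1 or co-cultured replicate 2.

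**Figure D5:**
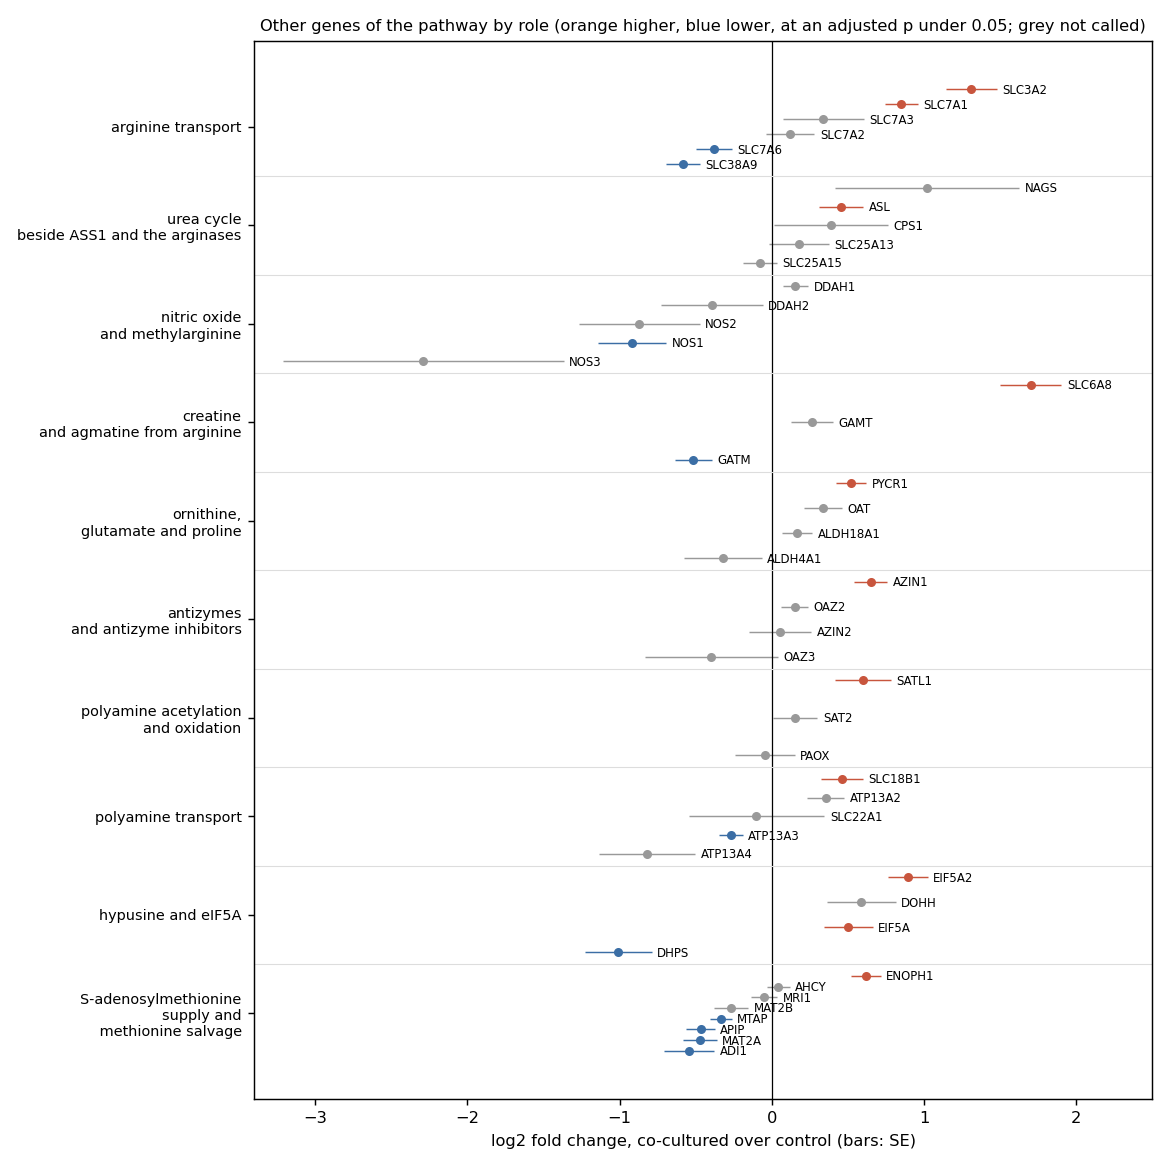
Log2 fold change (log2FC) of co-cultured over control (horizontal axis, bars give standard errors) of the other pathway genes tested and reported by name, by role, with genes at an adjusted p under 0.05 in orange where higher and in blue where lower and the rest in grey. SLC6A8 and SLC3A2 lie farthest to the right at 1.70 and 1.31, and called genes lie on both sides of 0.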

How the data were processed

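RNA-Seq libraries of NCI-H209 cells were deposited as read counts per gene, without normalization, as STAR writes them, strand by strand. Per the submitters' processing notes the tools were CASAVA 1.8, STAR 2.6.1b and DESeq2, and the build was GRCh38. The authors also deposited a comparison table of 32793 genes, with group means (normalized signal, equal to these counts over median-ratio size factors), fold changes, standard errors and p-values. Only its gene names and means were used, the means as a check. Gene models and lengths came from GENCODE release 29, and promoters from RefSeq (GRCh38.p14).

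The sense counts, held by the last column as the kit keeps strand, were filtered with filterByExpr, normalized by TMM and compared with edgeR 4.0.16 (R 4.3.3) by its quasi-likelihood test, p-values being adjusted over 20360 genes after Benjamini and Hochberg. Standard errors are the log2 fold change over the square root of F. The smallest p that exact permutation of 3 and 2 libraries allows is 0.1. No pair of replicates agreed within sampling noise (chi-square per degree of freedom of 4.19 to 16.1). The steps were tested on simulated data. DESeq2 1.42.0 and the other alternatives are given in the closing section. Plots used matplotlib 3.10.9.

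The 10 genes and all lists were chosen with earlier results of these data known. Named are the 10 genes, the relatives SAT2, PAOX, OAZ2, OAZ3, AZIN1 and AZIN2, and in each role list up to 3 called genes with the largest absolute log2 fold change. No table of protein sequences was used. 1 gene that this rule takes is counted but not reported here by name.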

Additional observations from a re-analysis of the deposited data

How the results depend on the processing

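The alternatives were DESeq2, normalization by upper quartile or median ratio, a filter of 10 counts in every library or of 1 in any, a replicate block, counts without regard to strand, and each library left out in turn. Of the 6 genes of the 10 that were called, ARG2, ASS1 and AMD1 kept direction and call under all of these that gave a value, and OAZ1, SAT1 and SMOX lost the call under at least 1. Of the 19 other pathway genes that were called and that the naming rule takes, 6 kept the call throughout (SLC3A2, SLC7A1, SLC6A8, AZIN1, EIF5A2 and ENOPH1) and 13 lost it under at least 1. Of the 10 genes, those called lower numbered 2 in place of 1 under upper-quartile normalization and with at least 10 counts in every library (AMD1 and SMS), 3 under the filter of 1 count in any (SRM as well), and 2 without regard to strand (AMD1 and, through reads of the other strand, ARG1). With at least 10 counts in every library, 1 in place of 2 met the study's criterion, since SMOX was not tested. With the replicate block 3 in place of 5 were called higher. With 1 library left out, the number called ran from 3 to 8 (higher 2 to 6, lower 1 to 2), and the other pathway genes called ran from 6 to 31 (higher 6 to 18, lower 0 to 13), while calls over all genes ran from 2734 to 9897. Where a co-cultured library is left out, the remaining one is assumed to vary like control. ODC1 turned to 0.028 without regard to strand and ran from -0.17 to 0.22 with a library left out. AZIN2 turned to -0.029 under upper-quartile normalization and ran from -0.105 to 0.196 with a library left out. PAOX turned to 0.035 with the replicate block and 0.00777 without regard to strand, and ran from -0.0908 to 0.0402 with a library left out. The cause of these turns was not tested. Libraries 1 and 2 of the groups share only a number: the correlation of their deviations was -0.106, and the block lowered the calls over all genes from 6809 to 4824. Depth limits SMOX (8 to 37 counts) and ARG1 (0 to 2 counts) most.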
